A study of Mus musculus with 34 samples.

Results

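The comparison described here sets the hippocampus of mice given kainate against the hippocampus of mice given nicotine, 1 week after the injections. Its members are the 5 arrays titled kainate hippocampus and the 6 arrays titled nicotine hippocampus, 11 of the 34 arrays in the series, chosen by their titles alone. Male mice were injected into the peritoneum on postnatal day 23, 3 times 2 h apart, and the survivors were killed on postnatal day 30. Each injection held 15 mg/kg kainate or 10 mg/kg nicotine. Saline mice were injected in the same way and gave 6 hippocampus arrays, which were left out of the test and are set beside its results. The neocortex of each of these groups was measured too (5 kainate, 6 nicotine and 6 saline arrays). The nicotine group is a group of drug-treated mice and not of untreated ones, and only mice that survived were measured. Total RNA (12 µg) from each hippocampus was measured on 1 Affymetrix oligonucleotide array. Strain and the severity of any seizure are not given in the sources used here.

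Kainate opens kainate-type and AMPA-type glutamate receptors, which are dense in the hippocampus, and provokes seizures that can injure pyramidal cells and the interneurons of the hilus. Nicotine opens nicotinic acetylcholine receptors. After seizure injury microglia, the resident macrophages of the brain, are known to multiply and to raise genes of phagocytosis, of lysosomes, of complement and of antigen presentation, and astrocytes raise the filament protein Gfap. Granule cells of the dentate gyrus are known to lose the calcium-binding protein calbindin after seizures. In whole tissue, fewer cells of a type and less RNA per cell cannot be told apart, and the same holds for more cells and more RNA.

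Of 6 measured markers of dentate and CA neurons, 2 separated the hippocampus from the neocortex on every array. Zbtb20, which encodes a zinc finger transcription factor of CA1, had signals of 2136 to 3467 on the 17 hippocampus arrays and 466 to 805 on the 17 neocortex arrays, and Dsp, which encodes the desmoplakin of dentate granule cells, 578 to 1476 and 61.9 to 309. Prox1, Wfs1, Nptx1 and Calb1 overlapped between the regions, Calb1 running higher in the neocortex (2550.0 to 3389.9) than in the hippocampus (1368 to 2752). The 3 thalamic markers measured did not go together. Prkcd was higher in the hippocampus on every array (1357 to 2113 against 815 to 1254). Rora was lower there on every array (245 to 633 against 656 to 1027), and Tcf7l2 overlapped (475 to 1404.5 against 575 to 1607). A part of thalamus in the tissue was not tested. Of choroid plexus, which lies against the hippocampus, Ttr, its transthyretin, ran from 38.1 to 9511 on the kainate arrays and from 331 to 9588 on the nicotine arrays. Its other markers varied less: Folr1, a folate receptor, ran from 404 to 1026 with kainate and 129 to 854 with nicotine, and Kl, klotho, from 158 to 459 and 280.5 to 380.2. The part of choroid plexus in the results was not tested. The array median lay between 403 and 439 with kainate and between 394 and 435 with nicotine. Kainate array 3 and nicotine array 3 stood apart on the spiked bacterial control probe sets, on which the 34 arrays fell into 2 clusters, and these were the only hippocampus arrays in the smaller one.

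Of 8695 probe sets tested, 187 (2.15%) were called different between kainate and nicotine at an adjusted p under 0.05. Kainate was higher for 168 of them (1.93%) and lower for 19 (0.219%). The higher calls covered 134 named genes, and 88 of the 168 exceeded 2-fold and 20 exceeded 4-fold. The lower calls covered 17 named genes and were small, with 1 over 2-fold, Rasd1. On the 9 arrays without kainate array 3 and nicotine array 3, 198 probe sets were called, 177 higher and 21 lower. Every kainate array was above every nicotine array for 204 probe sets (2.35%), which include 147 of the higher calls, and below for 57 (0.656%), which include 17 of the lower ones. Without the adjustment, 532 probe sets were higher and 378 lower at p under 0.05, and the median log2 difference over all probe sets tested was -0.014. Differences here are of log2(signal + 16), a scale on which changes of dim genes appear smaller, and each is given with its standard error (SE) from limma and a p adjusted over all 8695 probe sets.

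**Figure D1:**
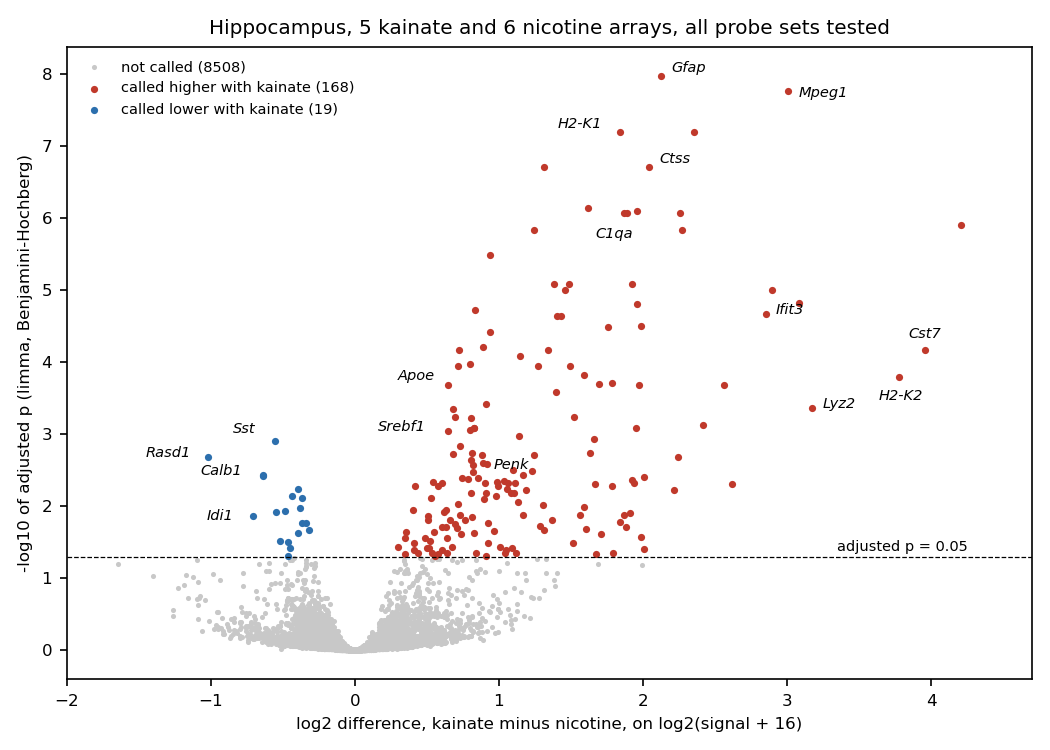
Each point is 1 probe set; the horizontal axis is the log2 difference of kainate minus nicotine in the hippocampus and the vertical axis is -log10 of the adjusted p, so that points above the dashed line were called. The higher calls reach 3.96 for Cst7, with 1 unnamed probe set beyond it, whereas the 19 lower calls lie between -1.02 for Rasd1 and -0.32 for Cttn.

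Saline arrays, which the fit did not use, lay with nicotine. For 164 of the 168 higher calls, the saline mean was nearer the nicotine mean than the kainate mean, and for 18 of the 19 lower calls as well. The median saline minus nicotine log2 difference was 0.05 over the higher calls and 0.0096 over the lower ones, against 1.06 and -0.47 for kainate minus nicotine. The 5 exceptions, named because they are exceptions, were Sgce, Cyb5r3, Zfp36 and Cpt1a among the higher calls and Fgf13 among the lower ones. Sgce, a sarcoglycan, had means of 2173 with kainate, 2034 with saline and 1592 with nicotine. For Zfp36, which encodes the mRNA-destabilising protein tristetraprolin, the signals were 519, 532, 823, 611 and 683 on kainate arrays 1 to 5, and the lowest, median and highest nicotine arrays had 95.3, 119.8 and 497, while saline ran from 99.9 to 549. The saline arrays of Zfp36 spread over the gap between the drugs, and nicotine array 4 alone of its group came near the kainate range. The log2 difference of Zfp36 was 1.92 ± 0.34 (SE), 3.79-fold, adjusted p = 0.00426.

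Genes of microglia and macrophages held the most rises of any list. Of 24 listed genes tested, 16 rose and 0 fell, with a median log2 difference of 1.39, whereas over all 6433 genes tested 1.97% rose, 0.264% fell and the median was -0.015. The array held 32 genes of the list. Cst7, Lyz2 and Aif1, among the 16, had nicotine means under the filter level of 135.7. They were tested only because they were high with kainate, so the count and median describe the list and do not test it. Mpeg1, which encodes the pore-forming perforin-2 of macrophages, had signals of 6031, 7745, 3822, 5370.1 and 5729.7 on kainate arrays 1 to 5 and of 531, 706 and 792 on the lowest, median and highest nicotine arrays. Every kainate array was well above every nicotine array, kainate array 3 being the lowest of its group, and saline ran from 441 to 1078. The log2 difference of Mpeg1 was 3.01 ± 0.16 (SE), 8.04-fold, adjusted p = 1.7e-08.

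Cst7, which encodes cystatin F, an inhibitor of lysosomal cathepsins in activated microglia, was among the largest differences. Its signals were 1900.1, 1168, 579.8, 1126 and 1493 with kainate, and the lowest, median and highest nicotine arrays had 29.3, 45 and 305. Nicotine array 3, at 305, stood apart from the other nicotine arrays, which ran from 29.3 to 59.7, and kainate array 3 was the lowest kainate array, so both arrays 3 lay nearest each other. The log2 difference was 3.96 ± 0.45 (SE; adjusted p = 6.77e-05), and it was 4.62 without those 2 arrays and 3.25 with 64 in place of 16 added to the signal, where H2-K2 had 3.53. Lyz2, the lysozyme of myeloid cells, had signals of 1192, 577, 366, 559.8 and 768 with kainate and 19.5, 43.2 and 185 on the lowest, median and highest nicotine arrays, with no overlap (log2 difference 3.17 ± 0.44 SE, adjusted p = 0.000435; 2.49 with 64 added to the signal). The nicotine means of Cst7 and Lyz2, 86 and 72, lay under the filter level of 135.7, so both were tested only because they were high with kainate, and no fold is given against signals that may be background. The same holds for Aif1, Csf3r, Lag3, Ifit3 and Gbp2, whose nicotine means were 75.3 to 118.

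Receptors and signalling proteins of microglia rose as well. Tyrobp, the adaptor (DAP12) of Trem2, had signals of 4261, 3826, 2377, 2843 and 4318 with kainate and 505, 713 and 844 with nicotine (lowest, median, highest), a log2 difference of 2.26 ± 0.17 (SE), 4.78-fold, adjusted p = 8.39e-07. Kainate arrays 1, 2 and 5 were the high ones and arrays 3 and 4 the low ones, and none reached down to the nicotine range. Aif1, the actin-binding protein Iba1 used to stain microglia, rose by 2.57 (adjusted p = 0.000203), and Irf8, a transcription factor that microglia need, by 1.76 (adjusted p = 3.2e-05). Ly86, a partner of the receptor Cd180, rose by 1.98 (adjusted p = 0.000203), with kainate arrays 3 and 4 at 1403 and 1442 and the other kainate arrays at 3304 to 3661. Cd52, a surface glycoprotein of leukocytes, rose by 1.84 (adjusted p = 0.0163), a call that was lost without kainate array 1, 2 or 5 (adjusted p 0.0508 to 0.0582). Csf3r, the receptor of granulocyte colony-stimulating factor, rose by 2.25 (adjusted p = 0.00205) on 1 probe set, whereas a brighter probe set of the gene differed by 0.043 (adjusted p = 0.976).

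Cx3cr1, the fractalkine receptor of resting microglia, did not pass the test. It had signals of 1168, 1347, 1691, 1562 and 1199.9 with kainate, against 784, 953 and 1432 on the lowest, median and highest nicotine arrays. The groups overlapped, and the log2 difference was 0.44 ± 0.16 (SE; adjusted p = 0.255). Fcgr1, the high-affinity receptor of immunoglobulin G, rose by 1.06 (adjusted p = 0.0048) on its brighter probe set and by 2.61 (adjusted p = 0.00483) on the other. It was the 1 gene called among 3 Fc receptor genes tested.

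The mean log2 level of the 24 microglial genes differed among the kainate arrays. Over the nicotine mean it was 1.57, 1.46, 1.13, 1.26 and 1.57 on kainate arrays 1 to 5, against -0.16 to 0.24 on the nicotine arrays and -0.21 to 0.0066 on the saline arrays. Kainate array 3 was the lowest kainate array and nicotine array 3 the highest nicotine array, and the gap between them remained wider than the range within either group. For the cathepsin list, the means were 1.16, 1.14, 0.60, 0.82 and 1.16 on kainate arrays 1 to 5, and for class I antigen presentation 1.23, 1.41, 0.85, 1.15 and 1.4, with array 3 the lowest in both. The means of the reactive astrocyte list, 0.59, 0.49, 0.55, 0.42 and 0.61, did not single out array 3.

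**Figure D2:**
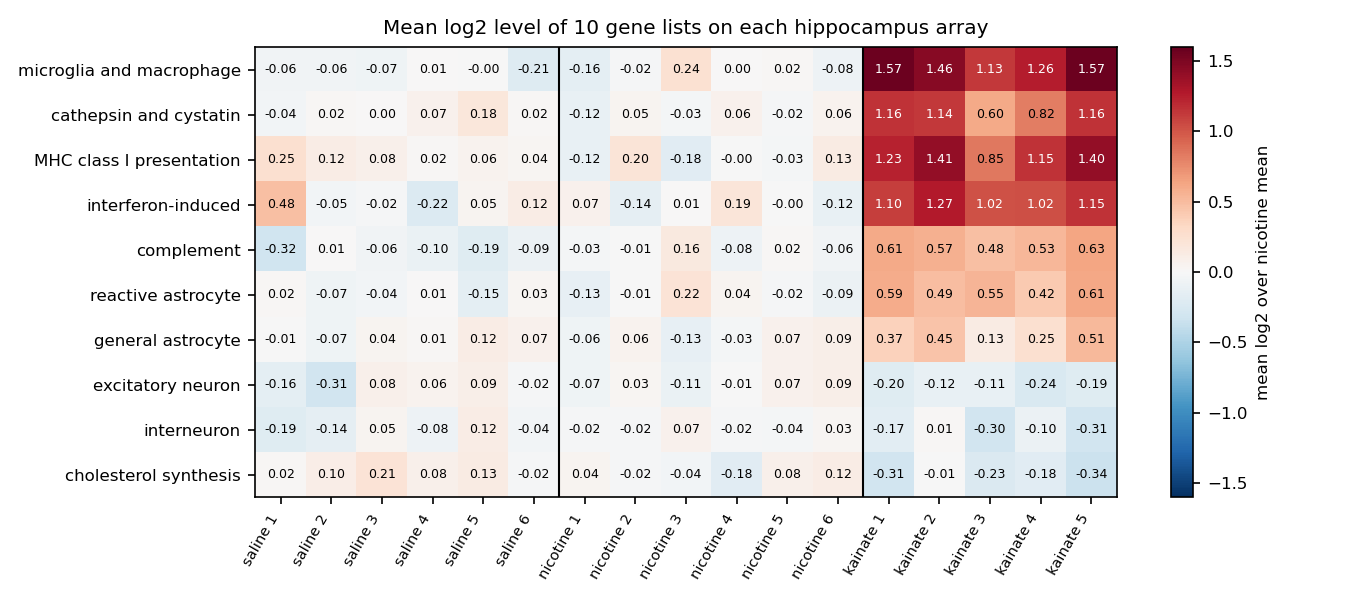
Rows are 10 gene lists and columns the 17 hippocampus arrays; each cell gives the mean log2 level of the list's tested genes minus its mean over the nicotine arrays. The kainate columns are positive in the upper 7 rows, and among them kainate array 3 has the lowest microglial value, 1.13.

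Complement genes rose in part. The 3 chains of C1q, which starts the classical pathway and tags synapses and debris for microglia, rose together: C1qa by 1.87 (adjusted p = 8.39e-07), C1qb by 1.89 (adjusted p = 8.49e-07) and C1qc by 1.92 (adjusted p = 8.05e-06). C1qa had signals of 13371, 12474, 7396, 9848 and 14257 with kainate and 2633, 3137 and 3325 on the lowest, median and highest nicotine arrays. All kainate arrays were above all nicotine arrays, again with array 3 the lowest, and saline ran from 2646 to 3457. Serping1, the inhibitor of C1, rose by 1.09 (adjusted p = 0.0384), a call lost without kainate array 1, 2, 3, 4 or 5 or nicotine array 2, 5 or 6 (adjusted p 0.0543 to 0.112). The other 8 of the 12 complement genes tested did not pass, and the median of the list was 0.21. A second, dim probe set of C1qb differed by 0.22 (adjusted p = 0.854).

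Lysosomal proteases and their inhibitors rose in 15 of 25 genes tested, and 0 fell (median 0.72). This list shares Cst7 and Lyz2 with the microglial list, and both were tested only because they were high with kainate. Ctsd, the aspartic protease cathepsin D, had signals of 24080.0, 26093, 11949, 19086 and 25124 with kainate and 5230.0, 7501 and 8549 with nicotine (lowest, median, highest). Kainate array 3 was lower than the other kainate arrays and still above all nicotine arrays, and the log2 difference was 1.5 ± 0.18 (SE), 2.82-fold, adjusted p = 0.000113. Ctss, the cathepsin that microglia use to process antigen, rose by 2.04 ± 0.13 (SE), 4.12-fold, adjusted p = 1.92e-07, and its kainate signals ran from 8831 to 15801 against 2717 to 3626 with nicotine. Ctsz and Ctsh, further cathepsins, rose by 1.95 (adjusted p = 0.000814) and by 1.25 (adjusted p = 0.00196). Grn, the lysosomal growth factor progranulin, rose by 1.15 (adjusted p = 8.15e-05), and Hexa, the alpha chain of beta-hexosaminidase, by 0.83 (adjusted p = 0.000821). A dim second probe set of Grn differed by 0.22 (adjusted p = 0.927).

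Genes of class I antigen presentation, which displays peptides from inside the cell, rose in 7 of 13 tested, with 0 lower and a median of 1.03. H2-D1, a class I heavy chain, had signals of 4113, 6414, 3654, 4382 and 4978 with kainate and 961, 1188 and 1452 with nicotine (lowest, median, highest), without overlap, and rose by 1.96 ± 0.15 (SE), 3.89-fold, adjusted p = 7.95e-07. H2-K1, a further heavy chain, rose by 1.84 (adjusted p = 6.42e-08), B2m, the light chain shared by all of them, by 1.99 (adjusted p = 3.1e-05), and H2-Q4 by 2.21 (adjusted p = 0.00594). The probe set annotated to H2-K2 gave the largest value of the list, with signals of 4483, 4666, 2893, 4379 and 4849 against 108, 187 and 978, a log2 difference of 3.78 ± 0.47 (SE), 13.7-fold, adjusted p = 0.000158. Nicotine arrays reached from 108 to 978 there, a wide spread, yet none came up to the lowest kainate array. Class I heavy chains are near-identical in sequence, so these probe sets can share transcripts, and a further probe set of H2-K1 differed by -0.016 (adjusted p = 0.996). Psmb8, a subunit of the immunoproteasome, rose by 1.78 (adjusted p = 0.000197), and Tap1, which carries peptides into the endoplasmic reticulum, by 1.03 (adjusted p = 0.00442); a dim second probe set of Tap1 differed by -0.23.

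Class II presentation, by which professional antigen-presenting cells display engulfed protein, had 0 of 6 tested genes called, of 11 on the array. Over all genes tested 1.97% rose and 0.264% fell, so 0 calls among 6 genes does not set this list apart. Its median was 0.30, with 4 of the 6 above 0. Cd74, the invariant chain, had signals of 434, 517, 464, 504 and 556 with kainate and 286, 341 and 437 on the lowest, median and highest nicotine arrays. The groups overlapped at the lowest kainate array (log2 difference 0.48 ± 0.17 SE, adjusted p = 0.246). H2-Eb1, a class II beta chain, had 120.1, 148, 449, 129.6 and 132 with kainate, where array 3 alone was high, and 104, 332 and 430.1 with nicotine (adjusted p = 0.777).

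Interferon-induced genes rose in 10 of 19 tested, with 0 lower and a median of 0.84. Psmb8 and Irf8 belong to this list and to those above. Ifit3 and Gbp2, among the 10, were tested only because they were high with kainate. The count was 5 with dim probe sets dropped up to the 50th percentile and 6 without kainate array 5. Ifit3, which binds viral RNA complexes, had signals of 539, 1214, 694, 599 and 819.7 with kainate and 39.4, 97.3 and 131 with nicotine (lowest, median, highest). Each kainate array was far above the highest nicotine array, saline ran from 34.4 to 283 and so reached above nicotine, and the log2 difference was 2.85 ± 0.29 (SE; adjusted p = 2.12e-05). Gbp2, a guanylate-binding GTPase, had 490.2, 399, 448, 386 and 406 against 26.6, 70.7 and 147 (log2 difference 2.42 ± 0.35 SE, adjusted p = 0.000743). Lgals3bp, a secreted ligand of galectin-3, rose by 2.27 (adjusted p = 1.44e-06) and Ifitm3, a membrane protein that blocks viral entry, by 1.41 (adjusted p = 2.24e-05). Isg15, a ubiquitin-like modifier, had 893, 886, 347, 774 and 984 with kainate and 46.3, 233 and 379.5 with nicotine, and kainate array 3 lay within the nicotine range. Its log2 difference of 2.00 ± 0.48 (SE; adjusted p = 0.0392) lost its call without kainate array 1, 2, 4 or 5 or nicotine array 1, 3 or 5 (adjusted p 0.0571 to 0.122), and also under 5 of the other settings (adjusted p 0.0501 to 0.1). Gbp3, a relative of Gbp2, rose by 1.28 (adjusted p = 0.0187), a call lost without kainate array 1, 2 or 5 (adjusted p 0.0591 to 0.0715).

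The 250 bases before the start of these genes were searched for the interferon-stimulated response element, here GAAA, any 2 bases and GAAA again, read on both strands with overlaps allowed, since the list was named for interferon. RefSeq's promoter table (build GRCm38.p6) held 97 of the genes called higher, and 12 of these (12.4%) had a match, against 3.11% of the genes tested and 3.46% of all 27025 genes in the table. Of the 8 genes called lower there, 1 had a match (Sst, 12.5%), and of 25 neuropeptide genes 12% did. Among the 9 called genes of the interferon list with a promoter there, 5 had a match, Ifit3, Gbp2, Gbp3, Isg15 and Irgm2, and of all 16 members of that list with a promoter, called or not, 8 did. The stretches below are written 5′ to 3′ along the gene's strand, with the match in capitals.
Ifit3 (chr19:34583387-34583436, + strand): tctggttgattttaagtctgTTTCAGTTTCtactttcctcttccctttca
Gbp2 (chr3:142620584-142620633, + strand): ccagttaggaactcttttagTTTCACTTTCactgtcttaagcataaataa
Gbp3 (chr3:142559979-142560028, + strand): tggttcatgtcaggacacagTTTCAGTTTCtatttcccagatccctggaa
Isg15 (chr4:156200861-156200910, - strand): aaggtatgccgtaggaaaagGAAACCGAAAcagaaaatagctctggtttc
Irgm2 (chr11:58214893-58214942, + strand): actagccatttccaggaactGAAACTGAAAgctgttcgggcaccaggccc
B2m (chr2:122147528-122147577, + strand): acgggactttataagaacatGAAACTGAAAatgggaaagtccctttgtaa
The match in Ifit3 begins 122 bases before the start and that in Gbp2 59 bases before it, and both are on the reverse strand. Ifit3 has a second match 156 bases before its start, and in Isg15 and Gbp3 matches overlap their neighbours. B2m, from the class I list, is shown because its match differs from that of Irgm2 in no letter. The PU.1 site GAGGAAGT, searched on both strands, was found in 1.03% of the genes called higher and 2.73% of those tested. A match describes letters in a window and shows no binding.

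Most secreted signals and markers of infiltrating white blood cells were too dim to test. Of the genes on the array, 14 of 36 cytokines and chemokines, 7 of 20 lymphocyte genes and 5 of 12 neutrophil genes were tested. Of those tested, 7.14%, 28.6% and 0% were called, beside 1.97% higher and 0.264% lower over all genes. Ccl9, a chemokine of myeloid cells, had signals of 772, 833, 711, 595 and 762 with kainate and 43, 221 and 289 with nicotine, without overlap, and rose by 1.94 (adjusted p = 0.00472). It was the 1 gene called of 14 cytokine and chemokine genes tested, and 2 were called without nicotine array 3 or without kainate array 3. In the lymphocyte list 2 of 7 rose, Lag3, an inhibitory receptor, by 2.90 (adjusted p = 9.88e-06) and Ighm, the heavy chain of immunoglobulin M, by 0.73 (adjusted p = 0.00143). Lag3 was tested only because it was high with kainate, and 2 dimmer probe sets of Ighm were not called. The median of the list was -0.23, with 3 of 7 genes above 0. Cd4, a T cell coreceptor, differed by -0.86 and was not called. The T cell receptor chains Cd3e and Cd3g and the coreceptor Cd8a were too dim to test, with signals of at most 127, 161 and 97.9 on any hippocampus array, and the neutrophil calgranulin S100a9 reached at most 104. Of 5 neutrophil and 4 blood genes tested, 0 were called.

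Of 16 reactive astrocyte genes tested 4 rose, and of 19 genes that all astrocytes express 8. Gfap, the intermediate filament that marks reactive astrocytes, had signals of 19470.2, 19140.5, 15902, 15433 and 19751 with kainate and 3368, 4163 and 4713 on the lowest, median and highest nicotine arrays. All 5 kainate arrays lay within a narrow range far above the nicotine arrays, saline ran from 3345 to 4273, and the log2 difference was 2.13 ± 0.10 (SE), 4.37-fold, adjusted p = 1.04e-08, the smallest adjusted p of the 8695 probe sets. Serpina3n, a secreted protease inhibitor, had 9183, 9482, 7075, 8262 and 9403 against 2205, 2884 and 3343 and rose by 1.61 ± 0.12 (SE), 3.06-fold, adjusted p = 7.18e-07. S100a6 and S100a10, small calcium-binding proteins, rose by 1.46 (adjusted p = 9.88e-06) and by 0.88 (adjusted p = 0.00196). These 4 were the called genes of the reactive list, whose median was 0.29. Vim, the filament vimentin, which is paired with Gfap in reactive astrocytes, was not among them, with signals of 146, 207, 425, 254 and 181 against 46.1, 196 and 397 and adjusted p = 0.9.

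In the general astrocyte list 0 genes fell and the median was 0.36; the difference between the astrocyte lists was not tested. The count of 8 higher calls was 4 without the intensity trend, 5 after centring each array on its median and 11 with the replicate block. Apoe, the lipid carrier apolipoprotein E, had signals of 63863, 84230.5, 69825, 68031 and 70379.8 with kainate and 39685, 46166 and 49861 with nicotine (lowest, median, highest), without overlap, and rose by 0.65 ± 0.083 (SE), 1.57-fold, adjusted p = 0.000203. Clu, the chaperone clusterin, rose by 0.89 (adjusted p = 6.19e-05), and Aqp4, the water channel of astrocyte endfeet, by 0.79 (adjusted p = 0.00418). Ptprz1, a receptor phosphatase, rose by 0.54 (adjusted p = 0.00464) on its brightest probe set, whereas 2 dimmer ones were not called. The metallothioneins Mt1 and Mt2, which bind zinc, rose by 0.42 (adjusted p = 0.00516) and by 0.41 (adjusted p = 0.0113); neither was called without the intensity trend (adjusted p = 0.0529 and 0.0818), and Mt2 was not called after median centring (adjusted p = 0.0588). Sparc, a matrix protein, rose by 0.57 (adjusted p = 0.0453), a call lost without kainate array 1, 2 or 5 or nicotine array 1, 2, 3, 4, 5 or 6 (adjusted p 0.0549 to 0.142). Gja1, the gap junction protein connexin 43, had 16237, 12958, 11663, 12038 and 13901 against 9094, 9543 and 12347, with overlap, and its call (log2 difference 0.41, adjusted p = 0.0408) was lost without kainate array 1, 2 or 5 or nicotine array 2, 3, 4, 5 or 6 (adjusted p 0.0732 to 0.119).

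Other astrocyte genes showed no call. Aldoc, the astrocytic aldolase, differed by 0.13 ± 0.11 (SE; adjusted p = 0.768). Slc1a2, the main glutamate transporter, had signals of 597, 1117, 549, 1213 and 1125 with kainate and 276, 633 and 1129.7 with nicotine and differed by 0.64 ± 0.35 (SE; adjusted p = 0.588), and with the replicate number as a block by 0.84 (adjusted p = 0.0102).

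**Figure D3:**
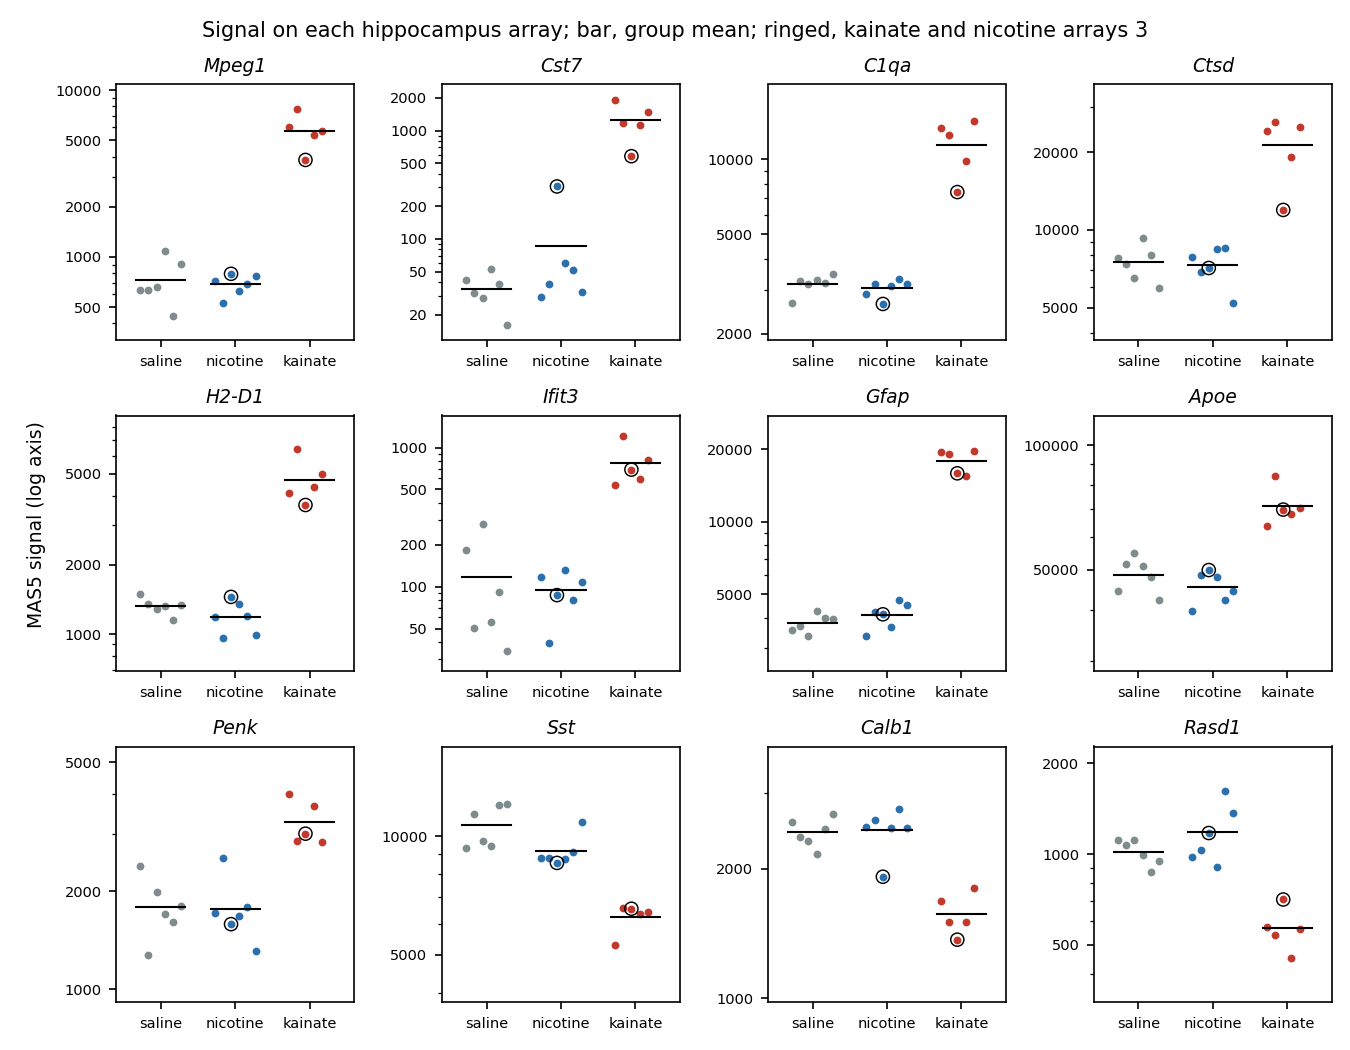
Each panel shows 1 gene; the vertical axis is the MAS5 signal on a log scale, points are single hippocampus arrays and bars are group means for saline (n = 6), nicotine (n = 6) and kainate (n = 5). In all 12 panels the kainate points lie apart from the nicotine points, upwards for the first 9 genes and downwards for Sst, Calb1 and Rasd1, and for Cst7 the ringed arrays 3 are the highest of nicotine and the lowest of kainate.

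Lipid genes moved in both directions. Abca1, the transporter that exports cholesterol to apolipoprotein E, had signals of 1531, 1284, 1295, 1280.4 and 1178 with kainate and 452, 494 and 775 with nicotine (lowest, median, highest), without overlap, and rose by 1.27 ± 0.15 (SE), 2.41-fold, adjusted p = 0.000113; a second probe set rose by 1.52 (adjusted p = 0.000567). Npc2, which hands cholesterol out of the lysosome, rose by 0.80 (adjusted p = 0.000879). With Apoe these made 3 of 15 genes of cholesterol efflux and transport (median 0.27). Srebf1, a transcription factor of lipid synthesis, had 3334, 3581, 3492, 3381 and 4026 against 1964, 2199.9 and 2669 and rose by 0.65 ± 0.096 (SE), 1.57-fold, adjusted p = 0.000904.

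Enzymes of cholesterol and fatty acid synthesis gave few calls. Of 20 genes tested in that list, Srebf1 rose, 2 fell and the median was -0.29. Idi1, the isopentenyl diphosphate isomerase, had signals of 1170.2, 1589, 1253, 1095 and 987 with kainate and 1449, 2159 and 2262 with nicotine (lowest, median, highest). Kainate array 2 alone lay inside the nicotine range, and the log2 difference was -0.71 ± 0.15 (SE; 1.63-fold lower, adjusted p = 0.0135). The call of Idi1 was lost without kainate array 5 (adjusted p = 0.0534) and with the replicate block (adjusted p = 0.0501). Scd1, the stearoyl-CoA desaturase, had 3091, 3028, 2316, 2413 and 2766 against 3225, 3638 and 4351 and fell by 0.47 (adjusted p = 0.0311), a call lost without kainate array 3, 4 or 5 or nicotine array 1, 3 or 5 (adjusted p 0.0554 to 0.092), and 2 dimmer probe sets of Scd1 were not called. Hmgcs1, the HMG-CoA synthase, differed by -0.42 (adjusted p = 0.0515), with every kainate array below every nicotine array. It was called without nicotine array 2 (adjusted p = 0.0381) and under 4 of 12 alternative settings (adjusted p 0.025 to 0.0465). Fdps, the farnesyl diphosphate synthase, differed by -0.45 (adjusted p = 0.0547), and was called without kainate array 2 (adjusted p = 0.0149). It was also called under 6 of 12 alternative settings (adjusted p 0.0255 to 0.0495), the lowest being that with the replicate block. The count of lower calls in this list ran from 0 without kainate array 5 to 4 without kainate array 2, and was 1 without kainate array 3 or 4 or nicotine array 1, 3 or 5.

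The lower calls were modest in size, and over all 6433 genes tested 17 fell (0.264%). The neuronal lists held 7 of these. They were Sst, Slc32a1 and Cck of 23 interneuron genes, Calb1 of 9 granule cell genes, Cpne6 and Gria1 of 25 excitatory neuron genes and Kcnab2 of 35 channel genes. Among 12 genes of pyramidal and mossy cells and 26 of synaptic vesicles 0 were called lower, although only 2 of the 12 and 0 of the 26 lay above 0. With the replicate number as a block 256 probe sets were called (2.94%): 60 probe sets (0.69%) were called lower in place of 19, and 196 (2.25%) higher in place of 168. Calb1, the calcium-binding protein calbindin of dentate granule cells, CA1 pyramidal cells and some interneurons, had signals of 1685, 1499.8, 1368, 1507 and 1801 with kainate and 1916, 2494 and 2752 with nicotine (lowest, median, highest). Nicotine array 3, the lowest of its group, still lay above all kainate arrays, and saline ran from 2162 to 2684. The log2 difference was -0.64 ± 0.11 (SE; 1.55-fold lower, adjusted p = 0.00367). It was the 1 gene called among 9 dentate granule cell genes tested. Dsp, a further one, had 948, 578, 837, 757 and 762 against 717, 1003 and 1476 (log2 difference -0.40, adjusted p = 0.425), and Prox1, the transcription factor of granule cells, 503, 332, 692, 163 and 300.4 against 224, 259 and 369 (log2 difference 0.37, adjusted p = 0.775); both overlapped.

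Interneuron genes divided. Sst, the neuropeptide somatostatin of hilar and stratum oriens interneurons, had signals of 5288, 6576, 6544, 6355 and 6404 with kainate and 8563, 8820.1 and 10879 with nicotine (lowest, median, highest). All kainate arrays lay below all nicotine arrays, kainate array 1 being the lowest, saline ran from 9321 to 12107, and the log2 difference was -0.55 ± 0.085 (SE; 1.47-fold lower, adjusted p = 0.00124). Slc32a1, which loads GABA and glycine into synaptic vesicles, had 3443, 4027, 2811, 3758 and 3273 against 4546, 4823 and 6501, without overlap, and fell by 0.55 (adjusted p = 0.012). Cck, the neuropeptide cholecystokinin of basket cells and of some pyramidal cells, had 15498, 16324, 19371, 19456 and 17666 against 20897, 24046 and 26120.0 and fell by 0.43 (adjusted p = 0.00715).

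Penk, the precursor of the enkephalins, went the other way. Its signals were 3986, 2848, 3009.8, 3666 and 2830.2 with kainate and 1316, 1698 and 2529 with nicotine, without overlap, and it rose by 0.89 ± 0.15 (SE), 1.86-fold, adjusted p = 0.00247; a second probe set differed by 0.42 (adjusted p = 0.678). Penk is also abundant in the neighbouring striatum, and it was the 1 gene called of 10 striatal and thalamic genes tested (median 0.076); Drd2, the striatal dopamine receptor, ran from 342 to 455 with kainate and from 255 to 536 with nicotine. Npy, neuropeptide Y, had 3508, 3017, 2987, 3130.3 and 3182 against 2258, 2488 and 2812, with every kainate array above every nicotine array, and differed by 0.34 ± 0.087 (SE; adjusted p = 0.057). It was called without nicotine array 1 (adjusted p = 0.0418) and under 4 of 12 alternative settings (adjusted p 0.0252 to 0.0499), the replicate block (adjusted p = 0.0327) among them. In all, 1 of 23 interneuron genes rose and 3 fell (median -0.15); without the intensity trend 1 fell, as Slc32a1 (adjusted p = 0.0544) and Cck (adjusted p = 0.0597) were then not called. Among 27 neuropeptide genes 1 rose and 2 fell.

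Other interneuron genes were not called. Gad1 and Gad2, the enzymes that make GABA, differed by -0.30 (adjusted p = 0.202) and by -0.078 (adjusted p = 0.962). Cort, cortistatin, a relative of somatostatin, had 272, 389, 137, 169 and 145 against 319, 463 and 612 and a log2 difference of -1.10 ± 0.28 (SE; adjusted p = 0.0549), which overlapped through kainate array 2 and was called without that array (adjusted p = 0.0149) or without nicotine array 4 (adjusted p = 0.0478). Cort was also called under 3 of the 11 alternative settings that tested it (adjusted p 0.0117 to 0.0491).

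The cyclic AMP response element TGACGTCA, a palindrome bound by CREB, lies in the 250 bases before the start of 2 of the 8 genes called lower that RefSeq's table holds, Sst and Ptpru, against 2.84% of the genes tested and 1.77% of all genes in the table. It was searched because peptide genes are known CREB targets. Among the 97 genes called higher 0 had it, and of 25 neuropeptide genes 5 did.
Sst (chr16:23890865-23890912, - strand): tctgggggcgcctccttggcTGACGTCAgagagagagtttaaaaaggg
Ptpru (chr4:131838292-131838339, - strand): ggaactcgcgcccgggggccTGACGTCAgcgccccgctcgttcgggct
The match begins 48 bases before the start of Sst and 41 bases before that of Ptpru. For the cholesterol enzymes the sterol response element TCACNCCAC was searched on both strands and was found in 1 of 15, Hmgcs1, 137 bases before its start, against 1.45% of the genes tested.
Hmgcs1 (chr13:119690194-119690242, + strand): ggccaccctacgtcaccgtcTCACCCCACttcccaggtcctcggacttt

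Genes of excitatory neurons had 2 of 25 called lower and 0 higher, with a median of -0.19. Gria1, the AMPA receptor subunit GluA1, had signals of 6949, 7008, 8022, 6432 and 6821 with kainate and 8079.6, 9057 and 9773 with nicotine (lowest, median, highest), without overlap. It fell by 0.37 (SE 0.078, adjusted p = 0.0171), a call lost without kainate array 4 or 5 (adjusted p 0.0569 to 0.0582), and its second probe set differed by -0.30 (adjusted p = 0.314). Saline ran from 6964 to 9631, which spans both drugs. Cpne6, a calcium-dependent phospholipid-binding protein of forebrain neurons, had 12172, 12725, 13744, 11879 and 11181 against 15268, 15569 and 17092 and fell by 0.37 (adjusted p = 0.00754). Of 12 genes of CA pyramidal and mossy cells 0 were called, with a median of -0.31. Without the intensity trend the excitatory list had 0 lower calls (adjusted p = 0.0908 for Gria1 and 0.0662 for Cpne6), and with the replicate block it had 4 and the pyramidal list 2; the excitatory list had 1 without kainate array 4 or without kainate array 5.

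Rasd1, a Ras-like protein induced by glucocorticoids, had the largest fall among called genes. Its signals were 573, 541, 707, 452 and 564 with kainate and 904, 1102 and 1620.4 with nicotine (lowest, median, highest). No array overlapped, and the log2 difference was -1.02 ± 0.16 (SE; 2.03-fold lower, adjusted p = 0.00205). Cnih2, the cornichon protein that escorts AMPA receptors, had 7305, 8109, 8816, 7970.1 and 7669 against 8649, 11572 and 12628 and fell by 0.48 (adjusted p = 0.0117); its highest kainate array passed the lowest nicotine array, and it was not called without the intensity trend (adjusted p = 0.0658). Pip5k1b and Inpp5j, a kinase and a phosphatase of phosphoinositides, fell by 0.64 (adjusted p = 0.00383) and 0.40 (adjusted p = 0.00573). A dimmer probe set of Pip5k1b was not called (log2 difference -0.55), and the saline mean of Inpp5j, 3589.5, lay about midway between kainate at 3103 and nicotine at 4092.

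Some of the smaller falls were not called when single arrays were left out. Kcnab2, a beta subunit of voltage-gated potassium channels, fell by 0.34 (adjusted p = 0.017), a call lost without kainate array 4 or 5 (adjusted p 0.0544 to 0.0569). Fgf13, which binds sodium channels, fell by 0.47 (adjusted p = 0.0483), a call lost without kainate array 1, 2, 3 or 5 or nicotine array 2, 3, 4, 5 or 6 (adjusted p 0.0546 to 0.14), and its saline arrays ran from 592 to 2009.7. Ptpru, a receptor phosphatase, fell by 0.52 (adjusted p = 0.03), a call lost without kainate array 1 or 2 or nicotine array 2, 3, 4, 5 or 6 (adjusted p 0.0539 to 0.0899).

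The receptors of the 2 drugs gave 1 call. Gria1 was the 1 gene called of 13 glutamate receptor genes tested. Gria2, the AMPA subunit that blocks calcium entry, had signals of 23515, 23688, 22791, 24182 and 23660.0 with kainate and 24593, 26038 and 28464 with nicotine, with every kainate array below every nicotine array, and differed by -0.15 ± 0.062 (SE; adjusted p = 0.385). Gria3 and Gria4 differed by -0.15 (adjusted p = 0.799) and by -0.37 (adjusted p = 0.755). The kainate receptor subunits Grik1, Grik2 and Grik5 differed by 0.0085 ± 0.31, -0.065 ± 0.14 and -0.091 ± 0.12 (SE), each with overlapping groups and an adjusted p of 0.891 or more. Of 9 nicotinic and cholinergic genes tested 0 were called: Chrna7, the alpha7 subunit of hippocampal interneurons, differed by 0.097 ± 0.14 and Chrna6 by -0.24 ± 0.28 (SE). The glutamate receptor list had 7.69% called, where 1.97% of all genes tested rose and 0.264% fell. At that share 0 calls among 9 genes does not set the nicotinic and cholinergic list apart.

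A week after the injections the immediate early list gave 1 call among 34 genes tested (2.94%), that of Rasd1. Over all genes tested 1.97% rose and 0.264% fell. Fos, the transcription factor induced by neuronal firing, had 666, 586, 437, 504 and 503 with kainate and 363, 583 and 1162 with nicotine (adjusted p = 0.946), and Bdnf, brain-derived neurotrophic factor, 2249, 1909, 1585, 2011 and 1845 against 1722, 2138 and 2762 (adjusted p = 0.684). Mdk, the growth factor midkine, was the 1 gene called of 18 neurotrophic factors, with 1958, 1586, 1564, 1188 and 2084 against 677, 886 and 1022 and a rise of 0.92 (adjusted p = 0.00256).

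Vessel, matrix and injury genes gave a few calls. Vcam1, an adhesion molecule of inflamed endothelium, rose by 0.68 (adjusted p = 0.0362) but was not called with the replicate block (adjusted p = 0.0677) or without kainate array 1, 2, 4 or 5 or nicotine array 1, 3, 4 or 6 (adjusted p 0.065 to 0.112). Bgn, the proteoglycan biglycan, rose by 0.80 (adjusted p = 0.00659), and Itgb5, an integrin chain, by 0.80 (adjusted p = 0.000106), each on the brightest of 2 probe sets. Anxa5, which binds exposed phosphatidylserine, rose by 0.68 (adjusted p = 0.00185), and Anxa3, a further annexin, by 0.91 (adjusted p = 0.0491), a call lost with the replicate block (adjusted p = 0.092) and without kainate array 1, 2, 3, 4 or 5 or nicotine array 2, 3, 5 or 6 (adjusted p 0.0563 to 0.138). Hspb8, a small heat shock protein, was the 1 gene called of 33 heat shock and ER stress genes, by 0.50 (adjusted p = 0.0384), lost without kainate array 1, 2, 3 or 5 or nicotine array 1, 2, 4, 5 or 6 (adjusted p 0.0503 to 0.136). Rplp0 was the 1 gene called of 23 ribosomal protein genes, by 0.30 (adjusted p = 0.0363), lost without kainate array 1, 2, 3 or 5 or nicotine array 1, 2, 3, 4 or 5 (adjusted p 0.0503 to 0.12).

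Several groups showed no call, where 1.97% of all 6433 genes tested rose and 0.264% fell. Lists of this size would hold few calls at that share, so the count of 0 calls sets none of them apart. The single calls among 33 heat shock and ER stress genes (3.03%) and among 23 ribosomal protein genes (4.35%) set those lists apart no more. Of 14 myelin genes tested 0 were called (median -0.03), and the same held for 49 genes of oxidative phosphorylation (median -0.076), 26 of synaptic vesicles (median -0.12), 30 of cell cycle and neurogenesis (median 0.14) and 16 of the circadian clock (median -0.067). In direction these lists differed, which was not tested. Above 0 lay 0 of the 26 synaptic vesicle genes, 10 of 49 of oxidative phosphorylation and 5 of 14 of myelin. The same held for 6 of 16 clock genes and 21 of 30 cell cycle genes, against 2994 of all 6433. With the replicate block 1 synaptic vesicle gene and 4 of 25 calcium and calmodulin signalling genes were called lower, in place of 0 and 1.

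The lists held 1168 genes in all, of which 698 were bright enough to test, and a list says nothing of its other members.

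**Figure D4:**
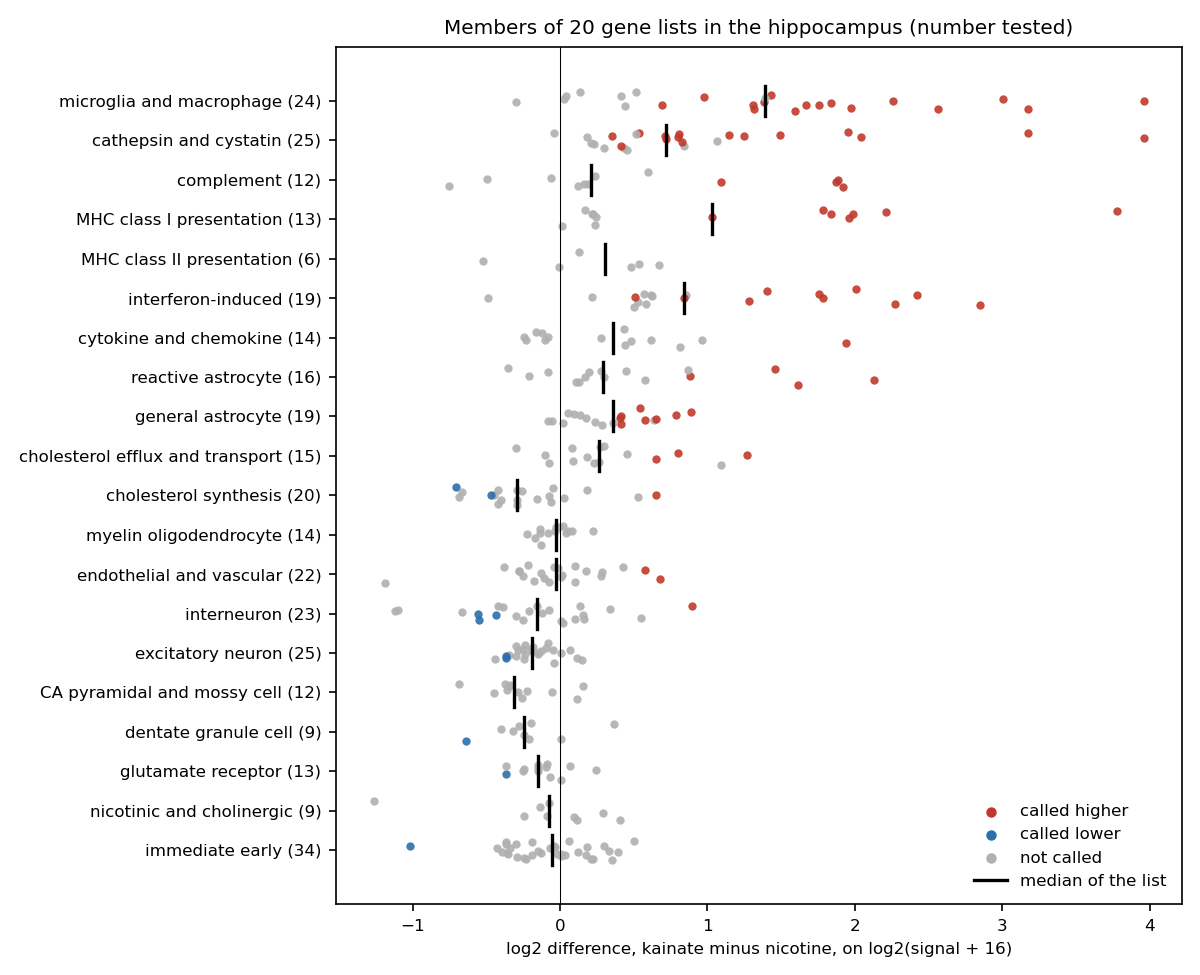
Rows are 20 gene lists with the number of genes tested, points are single genes (1 probe set each), the horizontal axis is the log2 difference of kainate minus nicotine in the hippocampus, and black bars are medians. Called genes on the right crowd the microglial, cathepsin, class I and interferon rows, and the few called lower lie in the neuronal, cholesterol and immediate early rows, no further left than -1.02.

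In the neocortex of the same treatment groups, the comparison of kainate with nicotine called 1 of 8695 probe sets (0.0115%), Gfap, by 1.04 ± 0.14 (SE; adjusted p = 0.0132); 388 probe sets there had an unadjusted p under 0.05. The difference between the regions was tested on the 22 kainate and nicotine arrays, as the hippocampal difference minus the neocortical one. It was called for 73 probe sets (0.84%), 67 with a higher value in the hippocampus (0.771%) and 6 with a lower one (0.069%). Of the 168 higher calls of the hippocampus 159 were tested for this, and 66 were called. Hippocampus and neocortex arrays from 1 mouse cannot be matched from the titles, so all 22 were treated as separate.

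The widest difference between the regions among named genes was that of Mpeg1, 3.21 ± 0.22 (SE; adjusted p = 7.17e-10). In the neocortex Mpeg1 ran from 521 to 905 with kainate and from 765 to 1017 with nicotine, so that the kainate arrays were not the high ones there. C1qa differed by 1.65 ± 0.17 between the regions (adjusted p = 1.52e-06), Ctss by 1.56 ± 0.16 (adjusted p = 1.41e-06) and Ifit3 by 2.43 ± 0.35 (adjusted p = 0.000159). Gfap was higher with kainate in both regions, and more so in the hippocampus, by 1.09 ± 0.18 (adjusted p = 0.000848). Serpina3n differed by 1.32 ± 0.17 (adjusted p = 3.16e-05) and Apoe by 0.58 ± 0.11 (adjusted p = 0.00419). Csf3r, Cd52 and Lag3 were also called, by 2.74 ± 0.51, 2.34 ± 0.46 and 2.12 ± 0.49, and Lag3 lost its call in 7 of 22 fits that leave out 1 array. Csf3r and Lag3 were below the filter in the neocortex and in nicotine hippocampus, so they entered this test through the kainate hippocampus arrays, where they are high.

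Penk differed in sign between the regions: 0.89 ± 0.15 in the hippocampus and -0.45 ± 0.21 in the neocortex, a difference of 1.34 ± 0.28 (SE; adjusted p = 0.0117). In the neocortex its signals ran from 2532 to 5244 with kainate and from 2867 to 7115 with nicotine, which overlap. Zfp36 was -0.40 ± 0.39 in the neocortex, and its difference of 2.33 ± 0.55 (adjusted p = 0.0385) lost its call in 18 of 22 left-out fits.

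The 6 probe sets with a lower value in the hippocampus included genes of pyramidal and granule cells. Wfs1, the endoplasmic reticulum protein wolframin of CA1 pyramidal cells, had 3511, 3817, 2780.5, 3315 and 3542 with kainate and 3314, 3829 and 5099 with nicotine in the hippocampus and differed there by -0.26 ± 0.13 (SE; adjusted p = 0.514), whereas in the neocortex it differed by 0.61 ± 0.10. The difference between the regions was -0.87 ± 0.17 (adjusted p = 0.00546). Calb1 differed by -0.69 ± 0.13 (adjusted p = 0.00593) and Cpne6 by -0.62 ± 0.12 (adjusted p = 0.00758). Cnih2 differed by -0.56 ± 0.13, Prkce, a protein kinase C, by -0.50 ± 0.11 and Cdc42se2, an effector of Cdc42, by -0.39 ± 0.092 (adjusted p = 0.0297, 0.0254 and 0.0365). These last 3 lost their calls in 12, 4 and 15 of 22 left-out fits. Within the hippocampus Prkce was called lower with the replicate block (adjusted p = 0.0197) and not without it (adjusted p = 0.0607), and was also called without nicotine array 4 (adjusted p = 0.0423).

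**Figure D5:**
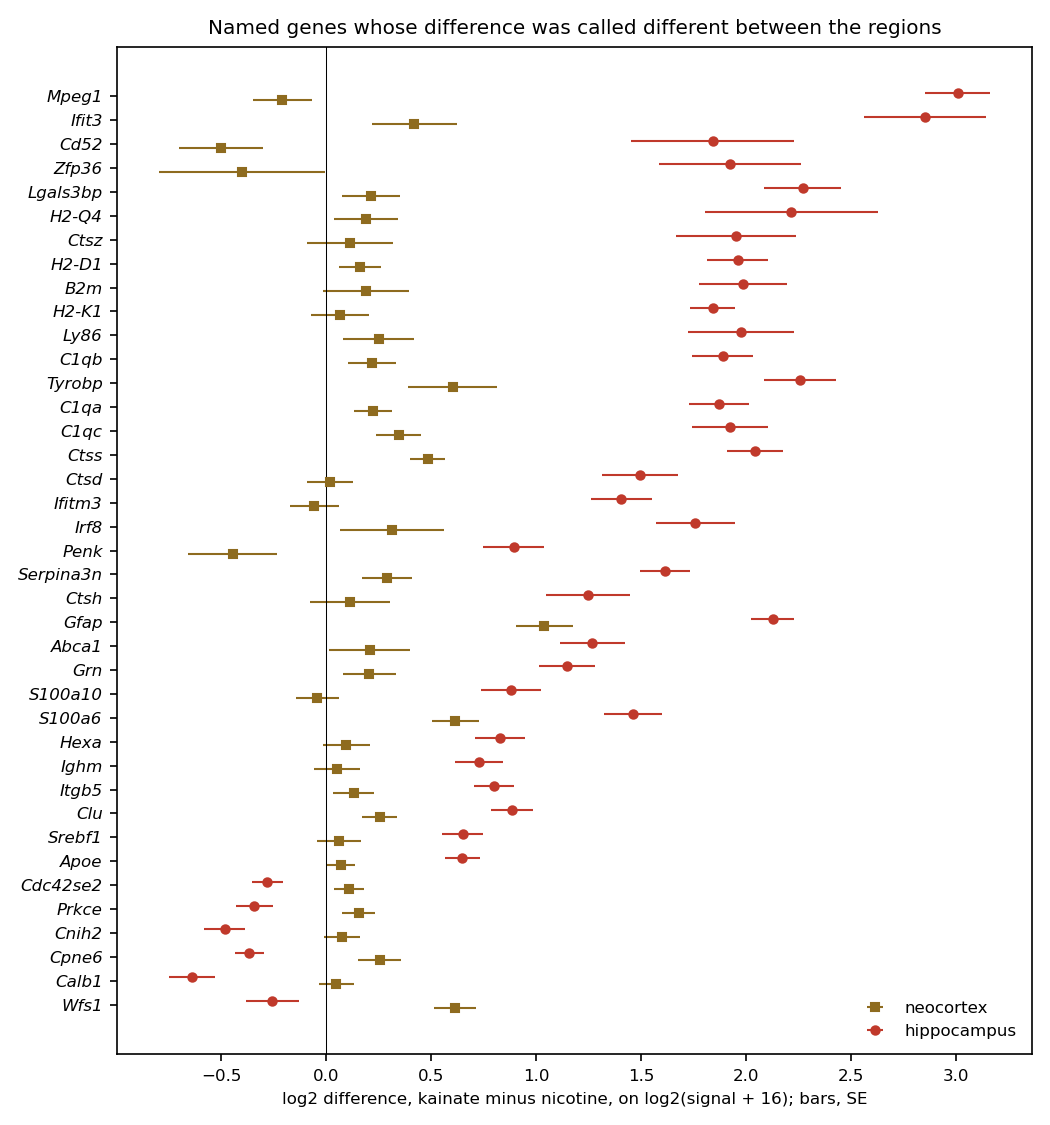
Rows are the 39 named genes called for a difference between the regions and measured in both; circles give the kainate minus nicotine log2 difference in the hippocampus, squares that in the neocortex, with SE bars. Circles lie to the right of squares for 33 genes and to the left for 6, and the squares lie between -0.50 and 0.48 apart from those of Gfap at 1.04, S100a6 at 0.61, Wfs1 at 0.61 and Tyrobp at 0.60.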

How the data were processed

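RNA of each hippocampus or neocortex was measured on 1 Affymetrix MG-U74Av2 array per mouse and region, and the authors deposited 1 intensity value (MAS5 signal) per probe set and array, per the submitters' processing notes; the MAS5 version is not given in the sources used here. Trimmed means of 1000.5 to 1000.6 show that the deposited arrays were already scaled. From these signals 66 control probe sets were dropped, 16 was added and log2 taken. The 30% of probe sets with the lowest mean log2 over the arrays of a fit were then dropped. Of 12422 probe sets, 10833 have 1 gene symbol, 396 several and 1193 none, and 10817 symbols matched RefSeq's table. Kainate and nicotine were compared on 11 arrays with limma 3.58.1 (R 4.3.3; lmFit, eBayes with an intensity trend, Benjamini-Hochberg adjustment), called at an adjusted p under 0.05, after the procedure was tested on simulated data. Arrays carry no read depth; their number limits the precision. The series' design gives as many mice as arrays in each group, so arrays of 1 group and region were taken as separate mice.

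Named genes were the 15 highest and 15 lowest called log2 differences, up to 8 called and 4 uncalled members of each list, the 6 highest and 6 lowest differences between the regions, and the receptors of the 2 drugs; of these, genes that add no value of their own are left out of the text. A gene's brightest probe set stands for it unless stated. The comparison, the 41 lists and the rule were chosen with earlier results of these data known. Replicate numbers are in the titles. Same-numbered kainate and nicotine arrays deviated together in the hippocampus (r = 0.278, 0.125, 0.25, 0.111 and 0.138 over probe sets). For kainate arrays 1 and 3 the same-numbered nicotine array gave the highest r. For kainate arrays 2, 4 and 5 another did: nicotine array 6 (0.253), 3 (0.173) and 6 (0.139). The control clusters placed hippocampus arrays 3 of kainate and nicotine together, but not array 3 of saline. In the neocortex the smaller cluster held saline array 6, kainate array 5 and nicotine array 6. Deviations and clusters do not establish a pairing by number, so the replicate block is an alternative setting only. In the neocortex same-numbered arrays did not deviate together (r = 0.0741, 0.0183, 0.151, 0.00978 and -0.021). Figures were drawn with matplotlib 3.10.9. Alternatives changed the pseudocount, the filter, the scaling, the arrays in the fit, weights, the trend, blocks and single arrays.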

Additional observations from a re-analysis of the deposited data

Results flagged for a closer look

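Among 208 groups of 5 or 6 hippocampus arrays examined, 1 array stood apart from the rest of its group in 17 by Dixon's ratio, the gap from the highest or lowest array to its neighbour over the range of the group; at the critical value used, about 1 group in 20 passes by chance. An array stood above the others of its group for Cst7 on nicotine array 3 (305, the others 29.3 to 59.7), Ly86 on nicotine array 3 (862, the others 509 to 617), Irf8 on kainate array 1 (974, the others 788 to 813), Gja1 on nicotine array 1 (12347, the others 9094 to 10163), Sst on nicotine array 6 (10879, the others 8563 to 9149), Slc32a1 on nicotine array 6 (6501, the others 4546 to 4993), Kcnab2 on nicotine array 2 (9157, the others 7756 to 8246), Grik1 on kainate array 4 (275, the others 103 to 149), Zfp36 on nicotine array 4 (497, the others 95.3 to 160.1), H2-Eb1 on kainate array 3 (449, the others 120.1 to 148). An array stood below the others for Grn on nicotine array 6 (994, the others 1249.5 to 1384), H2-K2 on kainate array 3 (2893, the others 4379 to 4849), Aldoc on kainate array 1 (20242, the others 24732 to 25979), Hmgcs1 on kainate array 3 (1472, the others 1861 to 2004), Npc2 on nicotine array 4 (1661, the others 2135 to 2368), Sst on kainate array 1 (5288, the others 6355 to 6576), Calb1 on nicotine array 3 (1916, the others 2489 to 2752). Each value is a MAS5 signal. Array 3 of either group is the array in 6 of these. No part of these arrays in other results was tested beyond the fits that leave each one out.

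The kainate minus nicotine difference differed between the regions for 73 probe sets by the interaction test. Among the named genes followed for it, the hippocampal log2 difference exceeded the neocortical one for Mpeg1 (3.21), Csf3r (2.74), Ifit3 (2.43), Cd52 (2.34), Zfp36 (2.33), Lag3 (2.12), C1qa (1.65), Ctss (1.56), Penk (1.34), Serpina3n (1.32), Gfap (1.09) and Apoe (0.58). It was below the neocortical one for Wfs1 (-0.87), Calb1 (-0.69), Cpne6 (-0.62), Cnih2 (-0.56), Prkce (-0.50) and Cdc42se2 (-0.39). Leaving out single arrays or changing the processing ended the call in part of the fits for Lag3, Zfp36, Cnih2, Prkce and Cdc42se2. For the other 13 genes it ended the call in none of the fits that tested them. Csf3r was tested in 10 of 12 alternatives and 19 of 22 left-out fits, and Cd52 and Ifit3 in 11 of 12 alternatives.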

How the results depend on the processing

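No result reversed among the 77 called genes named. Of these, 54 kept their call in every alternative and left-out fit that tested them. The call was lost under at least 1 alternative by 22 and without at least 1 array by 17. Among these 54, Cst7, Lyz2, Aif1, Csf3r, Lag3, Psmb8, Tap1, Ifit3, Ccl9 and Zfp36 were tested in 11 of 12 alternatives and Gbp2 in 10. Of 27 uncalled genes named, 7 were called in at least 1 alternative or left-out fit. The counts of calls came within 1.5 times of their main value in 120 of 126 fits. The exceptions were the lower calls, 19 in the report, of which there were 33 with all 17 hippocampus arrays, 33 with array weights, 10 without the intensity trend, 60 with the replicate block and 35 when the cluster of control signals was a block; and the differences between the regions, 73 in the report and 46 after median centring. The cause was not tested. Leaving out 1 array at a time gave 135 to 196 calls in all, 120 to 169 higher and 15 to 27 lower, 51 to 83 differences between the regions, and 133 to 185 calls with saline nearer nicotine (182 in the report). Fewest calls in all came without kainate array 5. With the replicate block, 256 probe sets were called in all, and 73 for the difference between the regions; beside the calls given in the report, it ended the call of the Lag3 difference between regions (adjusted p = 0.0943), the Zfp36 difference between regions (adjusted p = 0.147) and the Cdc42se2 difference between regions (adjusted p = 0.132) and changed no other call of a named gene.

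Signs reversed only among 5 uncalled genes. Grik1 was -0.039 after median centring, -0.040 after quantile normalization, -0.014 with array weights, and -0.19 to 0.13 when 1 array was left out. Gad2 was 0.0049 with array weights, 0.16 within control cluster 1, and -0.18 to 0.054 with 1 array left out. Fos was 0.011 within control cluster 1. With 1 array left out Fos ran from -0.26 to 0.067, Grik2 from -0.12 to 5.13e-06 and Vim from -0.038 to 0.51. Dim signals limit the folds: 19 of the higher calls had a nicotine mean under the filter level of 135.7, Cst7, Lyz2, Aif1, Csf3r, Lag3, Ifit3 and Gbp2 among them, where MAS5 signals may be background.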
